A study of Homo sapiens with 2 samples.

Results

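Transcripts of 8 genes of secreted factors that act on blood vessels were compared in SAS cells with and without added ASC. The genes were VEGFA, VEGFB, VEGFC, PDGFA, PDGFB, PDGFC, THBS1 and ANGPTL4. SAS is an established human oral cancer cell line. The members were taken by gene name from a deposited transcript table, which gave 8 of 24124 genes and 74 of 134092 transcripts. The ASC sample stably carried the lentiviral vector pLKO.AS2 with ASC, the inflammasome adaptor encoded by PYCARD, and the control sample carried pLKO.AS2 without it. Both lines were kept in DMEM with 10% FBS, 200 μg/ml G418 and 2 μg/ml puromycin. Neither the promoter that drives ASC nor whether each line was a clone or a pool is given in the labels. Each group had 1 library of poly(A) RNA, so the differences have no replicate check, and no test or p-value is given.

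VEGF proteins are the main growth signals for endothelial cells. VEGFA acts on blood vessels through the receptors FLT1 and KDR, VEGFC acts mainly on lymphatic vessels through FLT4, and VEGFB binds FLT1. PDGF proteins act on fibroblasts, pericytes and smooth muscle through PDGFRA and PDGFRB. Thrombospondin-1, encoded by THBS1, is a large matrix protein that inhibits angiogenesis through receptors such as CD36 and CD47, and it activates latent TGF-beta. ANGPTL4 inhibits lipoprotein lipase and is induced by hypoxia and by PPAR ligands. Carcinoma cells are known as sources of VEGF and PDGF ligands for the surrounding vessels and stroma, and usually lack the receptors.

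The ends of VEGF and PDGF chains differ by splicing, and the spliced ends set how tightly the proteins hold to heparan sulfate outside the cell. The following VEGFA sequences are shown because the VEGFA transcript shares reported here separate these forms. Each is the coding sequence from exon 5 to the stop codon, 5′ to 3′, from GENCODE release 29 (hg38, chromosome 6, plus strand), with the bases of exons 6a and 7 in capitals and exons 5 and 8 in lower case. Exon 5 lies at chr6:43778889-43778918, exon 6a at chr6:43780732-43780803 and exon 7 at chr6:43781956-43782087, all of them coding.
VEGF189: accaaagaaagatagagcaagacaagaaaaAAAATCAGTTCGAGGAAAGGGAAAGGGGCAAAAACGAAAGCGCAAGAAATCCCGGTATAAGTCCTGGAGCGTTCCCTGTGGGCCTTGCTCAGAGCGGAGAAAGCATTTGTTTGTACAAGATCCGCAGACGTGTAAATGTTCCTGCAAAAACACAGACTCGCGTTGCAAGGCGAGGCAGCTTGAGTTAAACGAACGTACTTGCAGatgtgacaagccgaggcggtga
VEGF165: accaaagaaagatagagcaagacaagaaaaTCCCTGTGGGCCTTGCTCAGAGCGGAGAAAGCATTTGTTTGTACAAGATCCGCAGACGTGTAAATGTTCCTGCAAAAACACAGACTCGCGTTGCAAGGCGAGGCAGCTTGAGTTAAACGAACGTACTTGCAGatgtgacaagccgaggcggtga
VEGF121: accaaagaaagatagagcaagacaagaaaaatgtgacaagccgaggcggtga
VEGF189 has all of these exons and is held on the cell surface and matrix. VEGF165 lacks exon 6a, and VEGF121 lacks exons 6a and 7 and diffuses freely. Exon 6a has 72 bases and exon 7 has 132 bases, so few of the reads of a transcript of 3535 bases such as the leading VEGFA transcript can tell the forms apart. VEGF183, a further form, uses 54 of the 72 bases of exon 6a.

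For PDGFA the long and short forms are shown, since their shares differed between the libraries. Each runs from exon 5 to the stop codon on the minus strand of chromosome 7 (hg38), and capitals mark the coding part that differs. In the long form this part lies in exon 6 (chr7:500431-500499), which encodes the basic stretch known to retain PDGF-A on the cell surface and matrix. In the short form it lies in exon 7.
PDGFA long: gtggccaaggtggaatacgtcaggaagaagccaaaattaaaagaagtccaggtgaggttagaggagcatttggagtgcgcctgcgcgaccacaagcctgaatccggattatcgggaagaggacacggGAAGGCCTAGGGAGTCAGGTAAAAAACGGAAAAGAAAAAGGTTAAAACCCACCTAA
PDGFA short: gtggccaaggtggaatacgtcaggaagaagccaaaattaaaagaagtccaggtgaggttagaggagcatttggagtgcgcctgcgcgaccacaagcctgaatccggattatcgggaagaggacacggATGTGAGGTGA

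The ASC library held 31426491 listed reads and the control library 31289581. PYCARD stood at 266.5 RPKM in ASC cells against 1.36 RPKM in control cells, a direction that matches the labels. RPKM are reads per length of transcript and per depth of library, summed here over the transcripts of a gene. Log2 ratios are of ASC over control on the log2(RPKM + 1) scale, which understates the differences of low genes, and a gene was compared if it reached 1 RPKM in either library. The median over the 12471 genes compared was 0.01, with a 5th percentile of -0.41 and a 95th percentile of 0.42. The epithelial markers KRT5, KRT14, KRT6A, TP63, CDH1 and EPCAM, 6 genes, summed to 723.5 RPKM in ASC cells and 807.1 RPKM in control cells. KRT5 and EPCAM were the highest of them, and KRT6A the lowest, at 8.13 against 11.5 RPKM in control cells. Of the 6 log2 ratios, 3 lay above 0 and 3 below. Of 5 endothelial markers, PECAM1, KDR and TEK were under 0.1 RPKM in both libraries, and the 5 summed to 2.86 RPKM in ASC cells against 2.14 RPKM in control cells, most of it CDH5 and VWF. CDH5 was higher in ASC cells, at 2.23 RPKM and 272 reads against 1.23 RPKM and 155 reads in control cells, a log2 ratio of reads of 0.82 (95% counting interval 0.53 to 1.11). VWF stood at 0.584 RPKM in ASC cells against 0.840 RPKM in control cells. Of 6 fibroblast and pericyte markers, 5 were found and summed to 3.08 RPKM against 2.43 RPKM in control cells, most of it RGS5. Of 3 leukocyte markers, PTPRC stood at 0.0542 RPKM in ASC cells and at 0 in control cells, while CD68, which carcinoma lines also express, stood at 24.1 against 25.9 RPKM. The part of such cells in the results was not tested.

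Of the 8 genes, 7 were compared and 6 of these stood higher in ASC cells. On the log2(RPKM + 1) scale none was 2-fold higher, against 0.617% of all compared genes, and none was 2-fold lower, against 0.265% of all, or 0.882% either way. At 1.5-fold, THBS1 and PDGFB were higher (2 of 7, against 2.38% of all genes) and none was lower (against 1.81%). The median log2 ratio of the 7 was 0.45. Across all compared genes, 52% lay above 0. In RNA from whole cultures, fewer cells with a transcript and less RNA per cell cannot be told apart.

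**Figure D1:**
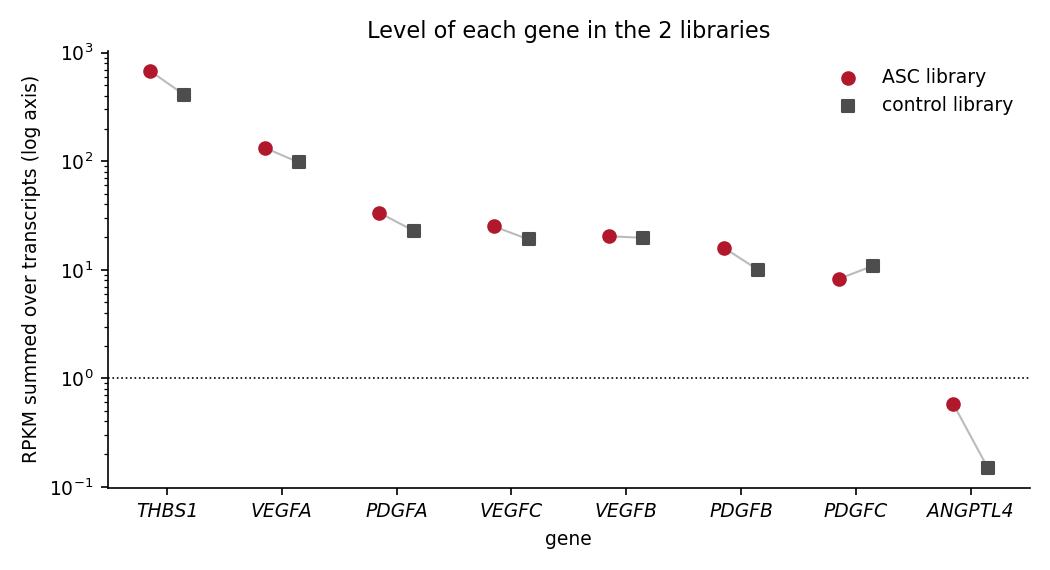
Level of each gene, in RPKM summed over transcripts on a log axis, in ASC cells (red circles, left of each pair) and in control cells (grey squares, right), with the dotted line at 1 RPKM. THBS1 stands above all others in both libraries, PDGFC is the only one with the control library higher, and ANGPTL4 lies under the line in both.

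THBS1 was by far the most abundant of the 8 genes, and it had the largest log2 ratio of the 7 compared. THBS1 (ENSG00000137801.10) lies on the plus strand at chr15:39581079-39599466. It stood at 683.7 RPKM in ASC cells against 409.6 RPKM in control cells, a log2 ratio of 0.74. By level it ranked 106 among all genes in ASC cells and 152 in control cells. Its reads were 0.438% of the listed reads in ASC cells and 0.252% in control cells. Its depth-scaled reads gave a log2 ratio of 0.81, with a 95% interval of 0.80 to 0.82. These intervals are exact (Clopper-Pearson) binomial intervals of rounded estimated reads, and they cover counting error only.

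All 8 THBS1 transcripts were above 1 RPKM and higher in ASC cells. The full-length transcript ENST00000260356.5, of 7775 bases, held 96.1% of THBS1 reads in ASC cells and 95.3% in control cells. It stood at 476.8 RPKM in ASC cells against 269.8 RPKM in control cells, with a log2 ratio of 0.82. The other 7 are short, and 6 of them are annotated with a retained intron. Together the 6 stood at 163.6 RPKM in ASC cells against 116.0 RPKM in control cells. Log2 ratios of the 7 short transcripts ran from 0.06, for ENST00000497720.1, to 0.83, for ENST00000560894.1. The short transcripts hold few reads and much of the summed RPKM, because RPKM divides by length. FSIP1 overlaps THBS1 on the other strand, and had 31 reads in ASC cells against 29 in control cells. The library kit does not mark strand, so reads of overlapping genes cannot be told apart.

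VEGFA was the second most abundant of the 8 genes, and by estimated reads its coding transcripts differed more between the libraries than its retained-intron transcripts. VEGFA (ENSG00000112715.21) lies at chr6:43770184-43786487. It stood at 133.2 RPKM in ASC cells against 97.4 RPKM in control cells, a log2 ratio of 0.45. The log2 ratio of its reads, 14062 in ASC cells and 10465 in control cells, was 0.43 (95% interval 0.39 to 0.47). Of 32 listed transcripts, 26 are coding and 6 are annotated with a retained intron and no coding sequence, and 13 had at least 10 reads in either library. The coding transcripts summed to 95.4 RPKM in ASC cells against 63.2 RPKM in control cells, with a log2 ratio of reads of 0.57 (95% interval 0.52 to 0.61). The retained-intron transcripts summed to 37.9 RPKM against 34.2 RPKM in control cells, with a log2 ratio of reads of 0.21 (95% interval 0.15 to 0.27). They held 35.1% of VEGFA reads in ASC cells (95% interval 34.3 to 35.9) and 41.0% in control cells (40.05 to 41.9). Those with most reads end within the last exon of the leading coding transcript. The split of reads between them and the coding transcripts is thus an estimate, with error beyond the counting intervals.

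Among the retained-intron transcripts, ENST00000497139.5 stood at 23.4 RPKM in ASC cells and 23.3 RPKM in control cells, with 2289 reads against 2285. ENST00000480614.1, of 12167 bases, stood at 5.67 RPKM in ASC cells against 4.24 RPKM in control cells, with a log2 ratio of reads of 0.42. These 2 transcripts held most of the retained-intron reads, and the intervals of their log2 ratios of reads, -0.08 to 0.09 and 0.33 to 0.50, did not overlap. The shares of VEGFA transcripts differed between the libraries by 6.18 points in all, as the sum of absolute share differences divided by 2. The median of this distance was 2.53 points over the 855 genes whose reads lay within 2-fold of those of VEGFA, and its 90th percentile was 7.24 points.

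The 4 coding forms of VEGFA with reads were all higher in ASC cells, and their proportions differed by at most a few points. Forms were named by the coding exons after exon 4. VEGF165, usually the main form, stood at 53.4 RPKM in ASC cells against 37.2 RPKM in control cells. VEGF189 stood at 24.3 against 15.4 RPKM, VEGF121 at 12.5 against 7.75 RPKM and VEGF183 at 5.16 against 2.87 RPKM in control cells. Of the reads of coding transcripts, VEGF165 held 73.4% in ASC cells (95% interval 72.5 to 74.3) and 75.3% in control cells (74.2 to 76.4). VEGF121 held 13.9% in ASC cells (13.2 to 14.6) and 12.8% in control cells (11.99 to 13.7). VEGF189 held 11.4% in ASC cells (10.7 to 12.05) and 10.7% in control cells (9.94 to 11.5). By RPKM, which divides by length, VEGF189 stood above VEGF121. In ASC cells the RPKM shares of coding transcripts were 56.0% for VEGF165, 25.5% for VEGF189 and 13.1% for VEGF121. In control cells they were 58.9%, 24.3% and 12.3%. For each of these forms the read-share intervals of the libraries overlapped, though for VEGF165 only from 74.2 to 74.3. Overlap of such intervals does not show that shares were equal. In the transcript with most reads of each form, the last exon has 1947 bases for VEGF165 and VEGF121, 409 for VEGF189 and 22 for VEGF183. Reads from the rest of that exon cannot be assigned to the transcripts that end earlier. The shares of the forms therefore depend on the annotated ends as well as on splicing, which the counting intervals do not cover. Log2 ratios of reads were 0.53 for VEGF165, 0.69 for VEGF121, 0.66 for VEGF189 and 0.76 for VEGF183. For VEGF145, VEGF148, VEGF206, VEGF111 and VEGF165b the estimate was under 1 read in both libraries. Taking 3 reads as the most that a count of 0 allows, a rule apart from the exact intervals, each could hold up to 0.0213% of VEGFA reads in ASC cells and 0.0287% in control cells. This limit covers counting error only, and estimates of forms that share most of their exons carry further error.

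**Figure D2:**
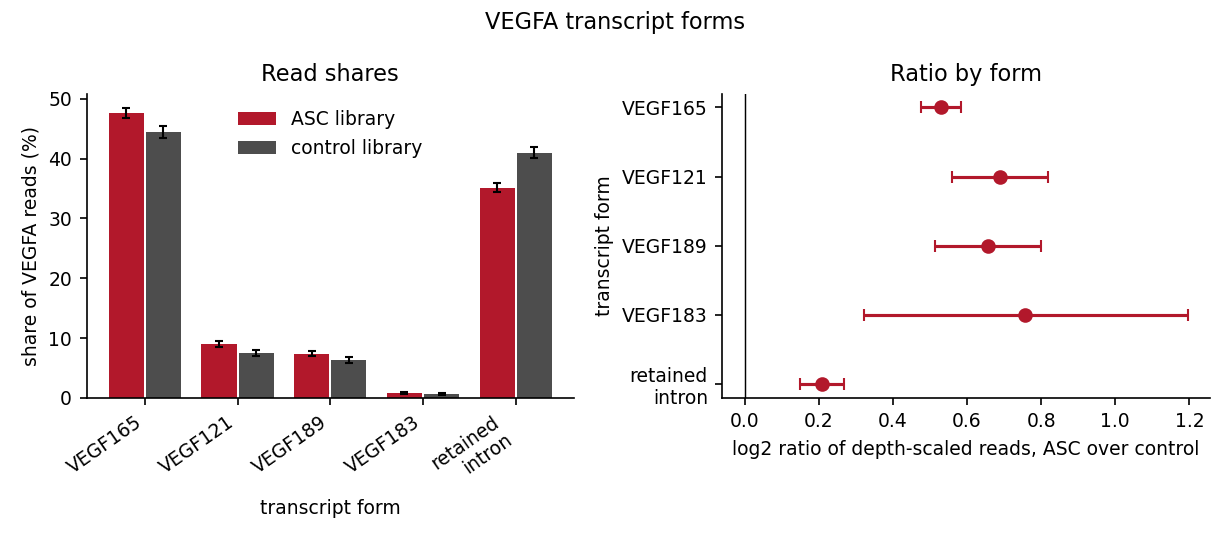
VEGFA transcript forms in ASC cells (red) and in control cells (grey). The left panel gives each form's share of VEGFA reads in percent, and the right panel the log2 ratio of depth-scaled reads of ASC over control, with bars for 95% counting intervals. Retained-intron transcripts have the lowest ratio, 0.21, and the smaller share in ASC cells.

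VEGFB had the log2 ratio nearest to 0 of the 7 compared genes, and VEGFC stood higher in ASC cells. VEGFB (ENSG00000173511.9, chr11:64234538-64238793) stood at 20.4 RPKM in ASC cells and 19.7 RPKM in control cells. Its log2 ratio of reads was 0.10, with a 95% interval of -0.05 to 0.24 that holds 0. Its 2 coding transcripts together had 0.16 (95% interval 0.01 to 0.32). The 2 coding forms end differently, since VEGFB167 binds heparin and VEGFB186 is soluble. VEGFB186 (ENST00000309422.6) stood at 11.4 RPKM in ASC cells against 10.1 RPKM in control cells, and VEGFB167 (ENST00000426086.2) at 3.81 against 3.58 RPKM. Of the reads of both forms, VEGFB167 held 19.1% in ASC cells (95% interval 16.3 to 22.3) and 20.2% in control cells (17.0 to 23.5). The retained-intron transcript ENST00000543462.1 stood at 5.13 RPKM in ASC cells against 6.07 RPKM in control cells.

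VEGFC (ENSG00000150630.3) lies on the minus strand at chr4:176683538-176792727. It stood at 25.1 RPKM in ASC cells against 19.03 RPKM in control cells, a log2 ratio of 0.38. The log2 ratio of its reads, 1813 in ASC cells against 1377 in control cells, was 0.40 (95% interval 0.30 to 0.50). The coding transcript ENST00000618562.1 held 99.0% of VEGFC reads in ASC cells and 98.8% in control cells, so the gene value is in effect that of 1 transcript. PGF, a further VEGF family ligand, stood at 1.05 RPKM against 1.54 RPKM in control cells, with 68 reads against 98.

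**Figure D3:**
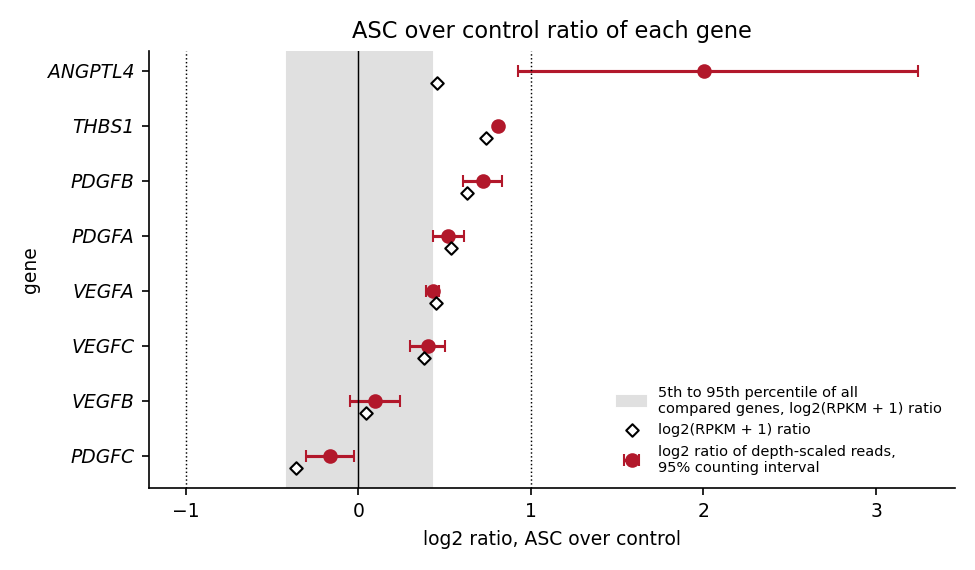
Log2 ratio of ASC over control for each gene. Red points with bars are depth-scaled reads with their 95% counting interval, open diamonds are the log2(RPKM + 1) ratios, the grey band runs from the 5th to the 95th percentile of these ratios over all compared genes, and dotted lines mark 2-fold. The diamonds of THBS1, PDGFB, PDGFA and VEGFA lie right of the band, as does that of ANGPTL4, which was under 1 RPKM and, with 36 against 9 reads, has the widest interval.

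PDGFA was higher in ASC cells, and its long form more so than its short form. PDGFA (ENSG00000197461.13) lies on the minus strand at chr7:497258-520296. It stood at 33.5 RPKM in ASC cells against 22.8 RPKM in control cells, a log2 ratio of 0.53, with 2440 reads against 1706. The short form ENST00000402802.7, with 196 codons, stood at 24.1 RPKM in ASC cells against 17.6 RPKM in control cells. The long form ENST00000354513.9, with 211 codons and the exon 6 sequence given above, stood at 8.25 RPKM in ASC cells against 4.06 RPKM in control cells. This is 2.03-fold in plain RPKM and a log2 ratio of 0.87 on the log2(RPKM + 1) scale. By reads its log2 ratio was 1.02 (95% interval 0.77 to 1.28), against 0.45 (0.35 to 0.55) for the short form. Of the reads of both forms, the long form held 16.2% in ASC cells (95% interval 14.8 to 17.8) and 11.6% in control cells (10.1 to 13.2). The long form is annotated with 1308 bases and the short form with 2305. By RPKM, which divides by length, the long form held 25.5% of the pair in ASC cells and 18.7% in control cells. Over all PDGFA transcripts the share distance was 4.63 points, where the median of 4428 genes with like numbers of reads was 4.32 points.

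Genes around PDGFA at the end of chromosome 7 were also higher in ASC cells. Of the 50 nearest compared genes, 47 lay above 0, with a median log2 ratio of 0.32, and after its subtraction PDGFA had 0.21. For the other 6 genes compared, the median of the 50 nearest lay between -0.00 and 0.07, and between 24 and 34 of the 50 lay above 0.

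PDGFB had the largest log2 ratio of the growth factor genes compared. PDGFB (ENSG00000100311.16) lies on the minus strand at chr22:39223359-39244751 and encodes the B chain, which binds both PDGF receptors. It stood at 16.0 RPKM in ASC cells against 9.97 RPKM in control cells, a log2 ratio of 0.63, with 1683 reads against 1024. The log2 ratio of its reads was 0.72 (95% interval 0.61 to 0.84). The leading transcript ENST00000331163.10 stood at 12.3 RPKM in ASC cells against 7.34 RPKM in control cells. ENST00000381551.8, which starts from another first exon, stood at 3.51 against 2.63 RPKM in control cells. Of the reads of both, ENST00000381551.8 held 8.38% in ASC cells (95% interval 7.11 to 9.82) and 10.3% in control cells (8.55 to 12.4), intervals that overlap.

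PDGFC was the only gene of the 7 that was lower in ASC cells, and its transcripts went in both directions. PDGFC (ENSG00000145431.10) lies on the minus strand at chr4:156760454-156971394 and encodes a ligand of PDGFRA that is secreted in latent form. It stood at 8.23 RPKM in ASC cells against 10.9 RPKM in control cells, a log2 ratio of -0.36. By reads, 801 in ASC cells against 900 in control cells, the log2 ratio was -0.16 (95% interval -0.30 to -0.02). Most reads in both libraries went to ENST00000274071.6, which is annotated for nonsense-mediated decay, the degradation of RNA with an early stop codon. It held 77.8% of PDGFC reads in ASC cells and 78.2% in control cells, and stood at 5.85 against 6.59 RPKM in control cells. It holds an extra exon that the coding transcripts lack, and the capitals in its sequence mark the bases before the early stop. The second sequence is exon 5 of the coding transcript, with capitals for the bases that the shortened coding form lacks. Both are given on the minus strand, for chr4:156861429-156861489 and chr4:156767773-156767990 (hg38).
PDGFC extra exon: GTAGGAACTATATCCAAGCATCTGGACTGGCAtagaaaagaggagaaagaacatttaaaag
PDGFC exon 5: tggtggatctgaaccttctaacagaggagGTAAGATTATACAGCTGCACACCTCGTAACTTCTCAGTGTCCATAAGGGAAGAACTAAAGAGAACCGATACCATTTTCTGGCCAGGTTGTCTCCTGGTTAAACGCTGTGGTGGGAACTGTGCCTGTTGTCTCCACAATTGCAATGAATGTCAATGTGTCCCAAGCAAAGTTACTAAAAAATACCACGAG

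The coding transcripts of PDGFC differed in opposite directions. ENST00000502773.5, with 345 codons, had 136.3 reads in ASC cells against 86.3 in control cells, and stood at 0.917 against 0.579 RPKM. ENST00000422544.2, the shortened form with 282 codons, had 30.2 reads in ASC cells against 83.6 in control cells, and stood at 0.996 against 2.75 RPKM. Their log2 ratios of reads were 0.66 (95% interval 0.27 to 1.07) and -1.47 (-2.13 to -0.86). Of the reads of both, the shortened form held 18.1% in ASC cells (95% interval 12.5 to 24.8) and 49.2% in control cells (41.7 to 57.2). By RPKM, which divides by length, the shortened form held 52.1% of the pair in ASC cells and 82.6% in control cells. Summed, both forms had 166.4 reads in ASC cells and 170.0 in control cells. These transcripts overlap each other and ENST00000274071.6, so their estimated reads carry error beyond counting.

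**Figure D4:**
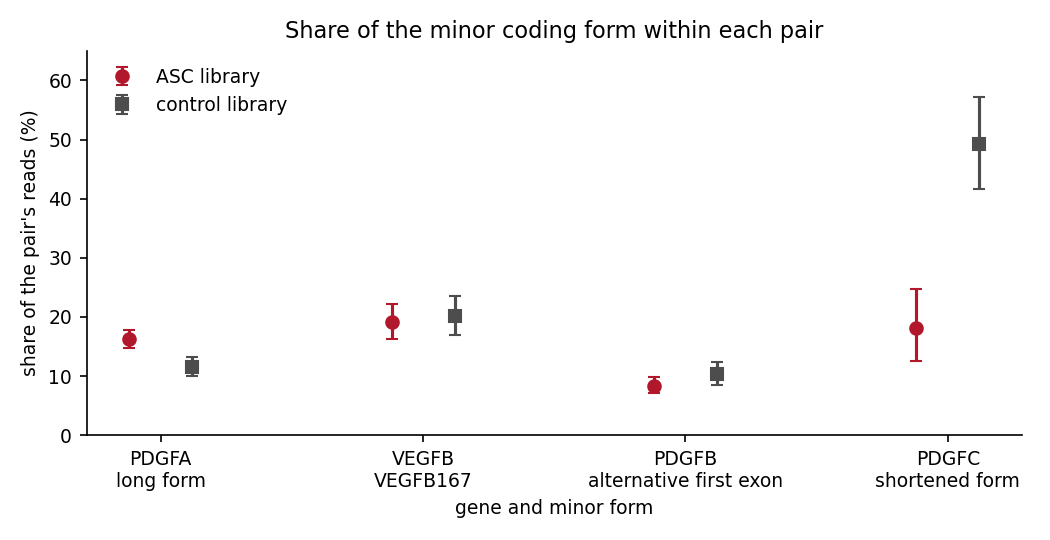
Share of the coding form with fewer reads, called minor in the figure, among the reads of a pair of coding transcripts, in percent. ASC cells are red circles and control cells are grey squares, with 95% counting intervals. By RPKM the PDGFC shortened form held 52.1% of its pair in ASC cells and 82.6% in control cells. The PDGFA long form is higher in ASC cells, the PDGFC shortened form is lower, and the intervals of VEGFB and PDGFB overlap.

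ANGPTL4 was too low to compare. ANGPTL4 (ENSG00000167772.11) lies on the plus strand at chr19:8363289-8374373. It stood at 0.578 RPKM in ASC cells against 0.149 RPKM in control cells, with 36 reads against 9. Scaled to depth, the reads gave a ratio of 4.01-fold, with a 95% interval of 1.90 to 9.47. Of its 11 transcripts, ENST00000393962.6, which lacks exon 4, had 21.8 reads in ASC cells against 0.084 in control cells. The full coding transcript ENST00000301455.6 had 9.10 reads in ASC cells against 7.94 in control cells. The antisense gene RAB11B-AS1 overlaps ANGPTL4 and had 35 reads in ASC cells against 51 in control cells, about as many as ANGPTL4 itself in ASC cells.

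Transcript by transcript, 28 of the 74 reached 1 RPKM in either library. Of these, 25 were higher in ASC cells, among them 9 of VEGFA and 8 of THBS1. The share of all compared transcripts above 0 was not computed, while 52% of compared genes lay above 0. On the same scale none of the 28 was 2-fold higher (against 1.26% of 34527 compared transcripts) or 2-fold lower (against 1.06%). At 1.5-fold, 8 were higher (against 5.66%) and 1 was lower (against 5.34%), the shortened PDGFC form. The 8 were 3 of VEGFA, 3 of THBS1 and 1 each of PDGFA and PDGFB. Transcripts of 1 gene share exons and are not independent of each other.

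The VEGF and PDGF receptor genes FLT1, KDR, PDGFRA and PDGFRB were low in both libraries. FLT1 had 10 reads in ASC cells against 3 in control cells, KDR had 1 in each, PDGFRB had 10 against 8, and PDGFRA had 0 against 3. The co-receptor gene NRP1 stood at 2.98 RPKM in ASC cells against 2.14 RPKM in control cells, a log2 ratio of 0.34, and NRP2 at 4.88 against 4.97 RPKM. Of the thrombospondin receptors, CD47 stood at 39.7 against 31.5 RPKM in control cells, and CD36 had 5 reads against 4. FLT4 was not analysed here.

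The other thrombospondins did not follow THBS1. THBS2, which also inhibits angiogenesis, stood at 20.1 RPKM in ASC cells against 22.9 RPKM in control cells, a log2 ratio of -0.18. THBS3 stood at 2.35 against 2.92 RPKM in control cells, and THBS4 and COMP were under 1 RPKM in both. Of 9 thrombospondins and receptors other than THBS1, 6 were compared, with 2 above 0 and 4 below, none past 2-fold and a median of -0.20. Lowest was LRP1, a clearance receptor for thrombospondins, with -0.40, followed by CALR with -0.28. The list of angiopoietins and angiopoietin-like genes had 4 of 12 genes found, all under 0.1 RPKM in both libraries. Of 4 further PDGF ligand and receptor genes, 3 were found and none reached 1 RPKM.

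Other secreted factors went both ways, with no log2(RPKM + 1) ratio past 2-fold. Of 14 other angiogenic factors, 11 were compared, with 8 above 0, 3 below and a median log2 ratio of 0.15. CCN2, named CTGF in the table, and the heparin-binding factor gene MDK had 0.58 each, while ANG and ADM had -0.56 and -0.44. ANG stood at 0.603 RPKM in ASC cells against 1.36 RPKM in control cells, which is past 2-fold in plain RPKM (a ratio of 0.445), with a log2 ratio of reads of -1.24 (95% interval -2.00 to -0.50). MDK stood at 103.3 RPKM in ASC cells against 68.7 RPKM in control cells. Of 12 secreted inhibitors of angiogenesis, 7 were compared, with 4 above 0, 3 below and a median of 0.01. COL18A1, the source of endostatin, had 0.51, ADAMTS1 0.23, SEMA3A -0.16 and SERPINF1 -0.11.

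Genes of at least 1 RPKM that process or regulate these factors differed by less than 2-fold as well, by that ratio and in plain RPKM. Below that level, PCSK5 stood at 0.122 RPKM in ASC cells against 0.257 RPKM in control cells, with 25 reads against 44. Of 11 genes for the processing of VEGF and PDGF precursors, 8 were compared, with 6 above 0 and a median of 0.16. CCBE1, a cofactor in VEGFC processing, had a log2 ratio of 0.55, at 21.8 RPKM in ASC cells against 14.6 RPKM in control cells. The protease genes PLAU and ST14 had 0.54 and 0.26. PLAT, whose protease activates PDGF-C, had -0.57, at 10.5 RPKM in ASC cells against 16.1 RPKM in control cells. Of 20 regulators of VEGFA and ANGPTL4 transcription, 18 were compared, with 12 above 0 and a median of 0.07, led by PPARG with 0.37, STAT3 with 0.31, HIF1A with 0.29 and EGLN1 with 0.25. All 11 regulators of VEGFA splicing were compared, with 3 above 0, 8 below and a median of -0.15. TIA1 had -0.73, at 22.3 RPKM in ASC cells against 37.6 RPKM in control cells, and CLK4, CLK1 and SRSF1 had -0.36, -0.22 and -0.19. Over all these lists 64 of 100 genes were compared, with 36 above 0 and a median of 0.03. None was past 2-fold on the log2(RPKM + 1) scale. Of all compared genes, 52% lay above 0 and 0.882% were past 2-fold either way.

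**Figure D5:**
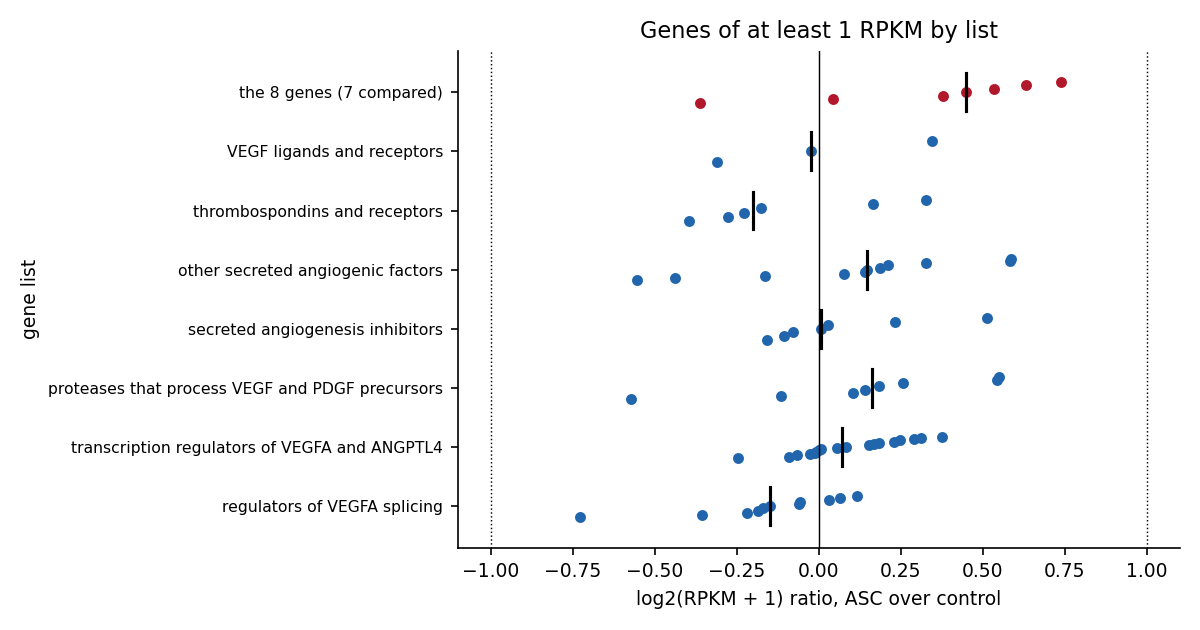
Log2(RPKM + 1) ratio of ASC over control for the 7 compared genes (red) and for the genes of each list of at least 1 RPKM (blue), with a black bar at the median and dotted lines at 2-fold. The red median is 0.45, and medians of the lists run from -0.20 to 0.16.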

How the data were processed

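Poly(A) RNA libraries were made with a TruSeq kit, 1 per group, and deposited as 1 table of transcripts. Per the file headers the deposited table holds reads, which by their values are fractional estimated counts not scaled to depth, and RPKM. The build was hg38, according to the submitters' processing notes. No aligner, quantifier or annotation is named in the labels or headers. Identifiers were matched to GENCODE release 29, with the same version for 98.4%. The authors' RPKM follow from length and 1 constant per library, and the listed reads were 88.1% of that constant for ASC and 87.4% for the control. The control group was taken from the genotype label and the ASC group from the vector label.

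RPKM was summed per gene, with a minimum of 1 RPKM in either library and a pseudocount of 1. Estimated counts were rounded for 95% intervals, and the ratio of the RPKM constants scaled reads to depth. Of 285 gene names turned into dates, 284 were restored. List symbols absent from the table were matched by gene ID, and 85 of 100 were found. Named were all 8 members, their transcripts with at least 5% of a gene's reads or 1 RPKM, the lesser ones by range or count, up to 4 genes per list by absolute log2 ratio, and receptors. The members and lists were chosen with earlier results of these data known. With 2 libraries no genes of like pattern were sought. The steps were checked on simulated data. Alternatives were pseudocounts, filters, scalings including TMM with edgeR 4.0.16, CPM, the highest transcript, coding transcripts only, subtraction of neighbours and shares from RPKM. Analyses used Python 3.11.15 with pandas 2.3.3.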

Additional observations from a re-analysis of the deposited data

How the results depend on the processing

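Each direction of the 7 compared genes held under every alternative that gave a value except VEGFB, which came to -0.00 after the median of 50 neighbours was subtracted. PDGFC ran from -0.57 with protein-coding transcripts only, a setting chosen after seeing the data, to -0.15 with the highest transcript, and PDGFA came to 0.21 after subtraction of neighbours; the causes were not tested. Lowering the threshold to 1.5-fold raised the count of higher genes to 2. The leading transcripts' shares taken from RPKM were 72.0% for PDGFA and 39.8% for VEGFA in the ASC library, and 77.3% and 37.6% in the control library, since RPKM gives short transcripts more weight. ANGPTL4 had 0.46 with no filter and 0.74 with CPM. No paired analysis was possible because each group had 1 library. Depth limits ANGPTL4 and the PDGFC coding forms, each with under 150 reads per library.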
